A study of Rattus norvegicus with 14 samples.

Results

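Glycerolipid synthesis was followed through 9 genes of the rat lateral prostate, out of 16134 genes named on the arrays. The first 3, Gpat4, Gk5 and Pi4k2b, were chosen from measured values: they were the genes called higher in rats given testosterone with a low amount of bisphenol A than in control rats, and Gpat4 was also the gene called in rats given testosterone with a high amount. The other 6, Gpam, Gpat3, Agpat2, Lpin1, Dgat1 and Dgat2, were listed for their role in the same pathway. Gpat4 and Gpat3 were matched through their older names, Agpat6 and Agpat9, and each of the 9 genes had 1 probe set.

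The tissue came from 14 male Noble rats, 48 weeks old, with 1 array per rat. The 4 control rats carried empty capsules. The other rats carried Silastic capsules for 32 weeks, all with 30 mg testosterone, to which was added 15 mg estradiol (T+E2, 4 rats), 15 mg bisphenol A (T+lowBPA, 3 rats) or 320 mg bisphenol A (T+highBPA, 3 rats). Rats on testosterone without a further compound were not analysed here. Against control the added compound and the testosterone therefore cannot be told apart, and only comparisons among the 3 treated groups hold testosterone fixed. Bisphenol A is a plastics monomer that binds estrogen receptors weakly, and Noble rats given testosterone and estradiol are a known model of prostate dysplasia.

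Every cell builds its membrane phospholipids and its stored triglyceride from glycerol 3-phosphate. Glycerol-3-phosphate acyltransferases add the first fatty acid, acylglycerolphosphate acyltransferases add the next to give phosphatidate, lipins remove the phosphate to give diacylglycerol, and diacylglycerol acyltransferases make triglyceride. Phosphatidate also feeds, through CDP-diacylglycerol, into phosphatidylinositol, which phosphatidylinositol 4-kinases phosphorylate on internal membranes. The prostate is a secretory gland, and its epithelium exports protein through Golgi membranes that carry phosphatidylinositol 4-phosphate.

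Values are RMA log2 values, so a difference of 1 is a doubling of signal, and values of different genes are not set against each other. A gene is called where limma's adjusted p, over all 16134 named genes, is below 0.05. The 7 prostate epithelium markers used, among them Pbsn, Msmb, Epcam and Tgm4, averaged between 9.80 and 10.61 on every array, with all T+lowBPA arrays (9.80 to 10.24) below all controls (10.30 to 10.53). These markers averaged 9.99 over the T+lowBPA group and 10.40 over control. The median of their 7 differences was -0.02, so the size of the drop was uneven among them. Limma called 0 of the 7, beside 0.0186% of all genes. Single markers varied more than the mean, with Tgm4 from 6.84 to 12.18 over arrays. Skeletal muscle markers averaged from 6.68 to 10.50 over arrays, with all 4 groups overlapping. The 7 adipocyte markers averaged 6.49 to 6.58 on the T+lowBPA arrays, above all control (6.21 to 6.47) and T+E2 arrays (6.24 to 6.47), and 6.28 to 6.72 on the T+highBPA arrays. The part of either cell type in the values of T+lowBPA against control was not tested. Markers of the ventral lobe stood apart: they averaged 12.47 on control replicate 4 against 5.82 to 6.29 on the other controls, 12.49 on T+E2 replicate 2 against 6.58 to 8.41, from 7.39 to 7.74 on the T+lowBPA arrays, and from 10.48 to 12.69 on the T+highBPA arrays. In whole tissue, fewer cells of a type and less RNA per cell cannot be told apart.

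Of the 3 genes chosen for their BPA values, Gk5 and Pi4k2b have promoter sequences in RefSeq's table for build GRCr8, as have Gpam, Gpat3, Agpat2 and Lpin1, 6 of the 9 genes in all. The stretches shown run from 250 bases before to 50 bases after the annotated start, and are given because both genes differed together between the BPA groups and the others. Capitals mark the GC box, GGGCGG on either strand, a short sequence bound by Sp-family factors. Gk5 has another annotated start, whose window overlaps the one shown. The Gk5 stretch lies at chr8:105561768-105562067 on the plus strand and the Pi4k2b stretch at chr14:62461397-62461696 on the minus strand.
Gk5: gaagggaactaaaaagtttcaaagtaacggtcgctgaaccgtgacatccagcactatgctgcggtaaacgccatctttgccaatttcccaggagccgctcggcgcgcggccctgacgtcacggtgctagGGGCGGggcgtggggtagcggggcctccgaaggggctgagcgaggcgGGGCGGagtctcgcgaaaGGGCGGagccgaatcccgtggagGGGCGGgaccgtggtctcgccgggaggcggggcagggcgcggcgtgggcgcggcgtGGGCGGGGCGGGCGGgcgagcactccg
Pi4k2b: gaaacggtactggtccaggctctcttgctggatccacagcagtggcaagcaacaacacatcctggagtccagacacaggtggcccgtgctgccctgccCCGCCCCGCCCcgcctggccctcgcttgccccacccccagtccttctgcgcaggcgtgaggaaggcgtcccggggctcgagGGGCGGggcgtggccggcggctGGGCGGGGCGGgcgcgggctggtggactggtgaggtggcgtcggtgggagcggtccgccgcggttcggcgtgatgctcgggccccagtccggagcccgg
Both stretches are rich in G and C, at 70.3% for Gk5 and 73.7% for Pi4k2b, against a median of 51.7% over 33469 promoters of the same length. The Gk5 stretch holds 7 GC boxes and the Pi4k2b stretch 5, counting overlapping matches, and 33.1% of all promoters hold at least 1. The GC box is all G and C, and these counts were not set against promoters of like G and C content. Several other motifs were looked for. The Gk5 stretch holds 1 cAMP response element, TGACGTCA, which 1.83% of promoters hold, and the window of its other annotated start holds 0. The Gk5 stretch also holds 1 CCAAT box, as do the Gpam and Lpin1 windows, and 37.5% of promoters hold at least 1. The TATA box TATAAA, found in 14.2% of promoters, occurs 1 time, in the window of the other Gk5 start. The E-box CACGTG, found in 6.42%, occurs in none of these windows. The nuclear receptor half-site AGGTCA, found in 16.2% of promoters, occurs 1 time, in the Gpat3 window. Among the genes listed by role, Agpat2 has 8 GC boxes, and Gpam, Gpat3 and Lpin1 have 0 in these windows. Neither the full estrogen response element GGTCANNNTGACC, found in 0.0269% of promoters, nor the androgen response element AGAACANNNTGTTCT, in 0.0149%, occurs in any of these windows on either strand. A match is a description of letters, not a site in use.

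Gpat4 encodes an acyltransferase of the endoplasmic reticulum that adds the first fatty acid to glycerol 3-phosphate. Its log2 values were 7.82, 7.95, 8.11 and 8.22 in the 4 controls and 7.60, 7.70, 7.95 and 8.14 in T+E2. They were 9.02, 8.88 and 9.11 in T+lowBPA and 9.11, 9.19 and 9.12 in T+highBPA. All 6 BPA arrays thus lay above all 8 other arrays, with 0.66 between the lowest BPA array and the highest of the rest. Gpat4 was 1.97-fold higher in T+lowBPA than in control (log2 difference 0.98 ± 0.13, SE) and 2.17-fold higher in T+highBPA (1.12 ± 0.13). The adjusted p of 0.0253 and 0.00838 in these comparisons chose the gene and are no test of it. The gap between BPA arrays and the rest was the widest upward gap of the 16134 genes, followed by Dapl1 at 0.60 and Ugt2b10 at 0.38. That rank rests on values that also chose Gpat4 and is no test of it either.

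The background to these choices is small. Calls covered 0.0186% of genes in T+lowBPA against control, which is 3 genes, and in T+highBPA against control 0.0062%, which is 1 gene. Separation of all 6 BPA arrays upward from all 8 others was seen for 63 genes, or 0.39%. Because the same values chose the 3 genes, nothing is read from their share. Just outside the threshold in T+lowBPA lay Fam83d at 0.90 (adjusted p = 0.0515) and Gpc3 at -1.08 (adjusted p = 0.0666), and in T+highBPA Gata3 at -0.98 and Rida at 0.56 (both adjusted p = 0.136).

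Gk5 belongs to the glycerol kinase family, whose founding member makes glycerol 3-phosphate, and in mouse skin it is linked to control of lipid synthesis. Its values were 8.59, 8.80, 8.94 and 8.47 in control, 8.55, 8.06, 8.37 and 8.43 in T+E2, 9.75, 10.01 and 9.85 in T+lowBPA, and 9.56, 9.05 and 9.74 in T+highBPA. The 6 BPA arrays lay above the 8 others, but by 0.12 only, since T+highBPA replicate 2 was low within its group. Gk5 was 2.25-fold higher in T+lowBPA than in control (1.17 ± 0.16, SE) and 1.68-fold higher in T+highBPA (0.75 ± 0.16).

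Pi4k2b encodes a type II phosphatidylinositol 4-kinase, which makes phosphatidylinositol 4-phosphate on Golgi, endosomal and plasma membranes. Its values were 9.22, 9.01, 9.17 and 9.25 in control and 9.01, 8.97, 8.93 and 9.02 in T+E2. They were 9.76, 9.74 and 9.80 in T+lowBPA and 9.55, 9.38 and 9.45 in T+highBPA. The BPA arrays again lay above the rest, by 0.13 at the closest. Pi4k2b was 1.52-fold higher in T+lowBPA than in control (0.60 ± 0.08, SE) and 1.23-fold higher in T+highBPA (0.30 ± 0.08).

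**Figure D1:**
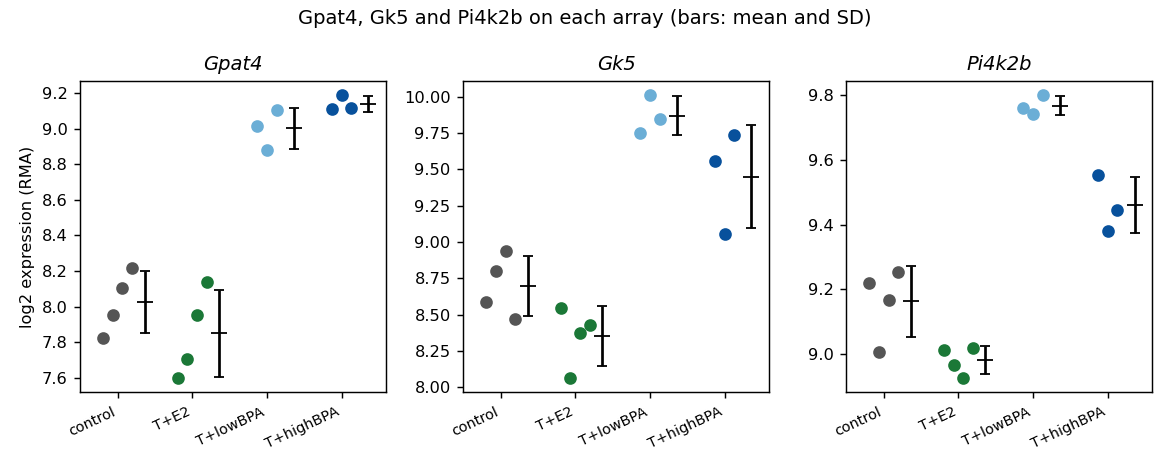
Log2 expression of Gpat4, Gk5 and Pi4k2b on each of the 14 arrays by group, with the group mean and SD beside the points. For each gene the 6 BPA arrays lie above the 8 control and T+E2 arrays, with the widest gap, 0.66, for Gpat4.

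T+highBPA against T+E2, both with testosterone, contrasts groups other than T+lowBPA and control, whose difference called Gk5 and Pi4k2b. The fit that called them took its spread from all 14 arrays. T+highBPA against control was also in view when the genes were chosen, so T+highBPA against T+E2 is no independent test of them. Gk5 rose 2.14-fold in T+highBPA relative to T+E2 (log2 difference 1.10, 95% interval 0.75 to 1.45, limma adjusted p = 0.00105). Pi4k2b rose 1.39-fold (0.48, 0.30 to 0.65, limma adjusted p = 0.0028). In both, every T+highBPA array exceeded every T+E2 array, and in that comparison the arrays of 26.7% of all genes did not overlap. Fitted on these 7 arrays alone, with none of the control or T+lowBPA arrays in the estimate of the spread, limma's adjusted p was 0.0065 for Gk5 and 0.0139 for Pi4k2b. Calls were common in this comparison, at 10.2% of all genes and 6.48% upward.

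The remaining contrasts of these genes reuse arrays that chose them and are given as values. Gpat4 was 2.22-fold higher in T+lowBPA than in T+E2 (1.15, 95% interval 0.88 to 1.43) and 2.45-fold higher in T+highBPA (1.29, 1.01 to 1.57). Gk5 differed by 1.52 (1.17 to 1.87) in T+lowBPA against T+E2, and Pi4k2b by 0.78 (0.61 to 0.96). T+E2 minus control was -0.18 for Gpat4, -0.34 for Gk5 and -0.18 for Pi4k2b, and the arrays of these groups overlapped for all 3. Since low control arrays helped to choose the genes, these values are not tested. Of the 6 genes listed by role, limma called 0 there, beside 3.23% of all genes. Of these 6, 1 gene, Dgat1, had an unadjusted p below 0.05, beside 17.9% of all genes.

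Between the 2 amounts of bisphenol A the 3 genes are also given as values, since Gk5 and Pi4k2b were chosen for high T+lowBPA arrays, which favours a lower T+highBPA, and Gpat4 for both groups. T+highBPA minus T+lowBPA was 0.14 for Gpat4 (95% interval -0.16 to 0.43), -0.42 for Gk5 (-0.80 to -0.04) and -0.31 for Pi4k2b (-0.50 to -0.12). The arrays of the BPA groups did not overlap for any of the 3, as for 25.4% of all genes, and those of Gk5 nearly met, at 9.74 against 9.75. No gene of the 16134 was called by limma between the BPA groups, although 2252 had an unadjusted p below 0.05. From high to low, the group means ran T+highBPA, T+lowBPA, control, T+E2 for Gpat4 and T+lowBPA, T+highBPA, control, T+E2 for Gk5 and Pi4k2b, an order that partly restates how the genes were chosen.

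The genes whose pattern over the 14 arrays was most like that of each of the 3, among 16018 candidates, are given by Pearson r as a description. For Gpat4 these were Lyplal1 (r = 0.938), Rida (0.927), Lins1 (0.921), Tmem263 (0.910) and Cdc37l1 (0.906). For Gk5 they were Gucy2c (0.961), Ppfia2 (0.953), Fam83d (0.953), Tmem263 (0.952) and Herc4 (0.936). For Pi4k2b they were Htr3a (0.935), Abhd13 (0.917), Rgsl2h (0.910), Zfp185 (0.910) and Daam2 (0.906). Tmem263 appeared for both Gpat4 and Gk5. Lyplal1 had group means of 7.89 in control, 7.79 in T+E2, 8.30 in T+lowBPA and 8.28 in T+highBPA, which is the same split as that of Gpat4 at a smaller size.

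For none of the 6 enzymes listed by role did all BPA arrays lie above the 8 others, as they did for 0.39% of all genes. Limma's only calls against control in T+lowBPA and T+highBPA were those that chose the first 3 genes. That none of the 6 was called there therefore follows from the choice. By limma's unadjusted p, 0 of the 6 were below 0.05 in either, beside 7.59% and 8.64% of all genes. Nothing is read from these counts of so few genes. Gpam and Gpat3 carry out the same step as Gpat4, at the outer mitochondrial membrane and in the endoplasmic reticulum. Gpam averaged 7.86 ± 0.27 (SD, n = 4) in control, 7.90 ± 0.12 in T+E2 (n = 4), 7.70 ± 0.13 in T+lowBPA (n = 3) and 7.92 ± 0.23 in T+highBPA (n = 3). Against control it differed by -0.17 (95% interval -0.48 to 0.14) on the T+lowBPA arrays. On the T+highBPA arrays it differed by 0.06 (-0.25 to 0.37).

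Gpat3 averaged 5.25 ± 0.27 in control, 5.22 ± 0.15 in T+E2, 5.46 ± 0.18 in T+lowBPA and 5.09 ± 0.13 in T+highBPA (SD, n = 4, 4, 3 and 3). Its differences from control were 0.21 (-0.09 to 0.52) and -0.15 (-0.46 to 0.15). Between the amounts of bisphenol A it differed by -0.37 (-0.70 to -0.04, limma adjusted p = 0.318), with arrays of 5.42, 5.66 and 5.31 in T+lowBPA and 5.03, 5.01 and 5.24 in T+highBPA. These arrays did not overlap, which is common in that comparison.

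Agpat2, which makes phosphatidate and whose loss causes congenital lipodystrophy in humans, varied little. Its arrays ran from 6.80 to 7.23 over all groups, and its differences from control were 0.10 in T+E2, 0.14 in T+lowBPA and 0.10 in T+highBPA, with limma adjusted p from 0.641 to 0.817. Dgat2, one of the triglyceride-forming enzymes, ran from 5.56 to 6.02, with differences from control of -0.02, 0.13 and -0.05.

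Lpin1 encodes lipin 1, the phosphatidate phosphatase that yields diacylglycerol. Its values were 6.95, 7.13, 7.17 and 7.32 in control, 6.97, 6.97, 7.09 and 6.93 in T+E2, 7.20, 7.31 and 7.48 in T+lowBPA, and 7.24, 7.33 and 7.34 in T+highBPA. All BPA arrays exceeded all T+E2 arrays, and both BPA groups overlapped the controls. Against T+E2 the difference was 0.34 in T+lowBPA (95% interval 0.13 to 0.55, limma adjusted p = 0.0861) and 0.31 in T+highBPA (0.10 to 0.52, limma adjusted p = 0.0598), so neither was called. In a fit blocked on replicate number, Lpin1 in T+highBPA against T+E2 differed by 0.33 (limma adjusted p = 0.0447), past the threshold. Separation of the arrays was seen for 15.9% of genes in the first comparison and 26.7% in the second.

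Dgat1, the other triglyceride-forming acyltransferase, was the only one of the 6 called in any comparison. Its values were 6.54, 6.61, 6.60 and 6.99 in control, 6.18, 6.40, 6.68 and 6.45 in T+E2, 6.56, 6.39 and 6.63 in T+lowBPA, and 6.79, 7.01 and 6.87 in T+highBPA. The T+highBPA arrays were above all T+E2 and T+lowBPA arrays, and control replicate 4 lay among them. Dgat1 rose 1.38-fold in T+highBPA relative to T+E2 (0.47, 95% interval 0.19 to 0.75, limma adjusted p = 0.0363). With the ventral prostate marker mean as a covariate the difference was 0.35 (adjusted p = 0.111). The call was also lost under quantile normalization (adjusted p = 0.056) and without T+E2 replicate 1, 2 or 4 (0.0967, 0.0738 and 0.0671), T+lowBPA replicate 1 (0.05), or T+highBPA replicate 1, 2 or 3 (0.069, 0.135 and 0.0814).

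**Figure D2:**
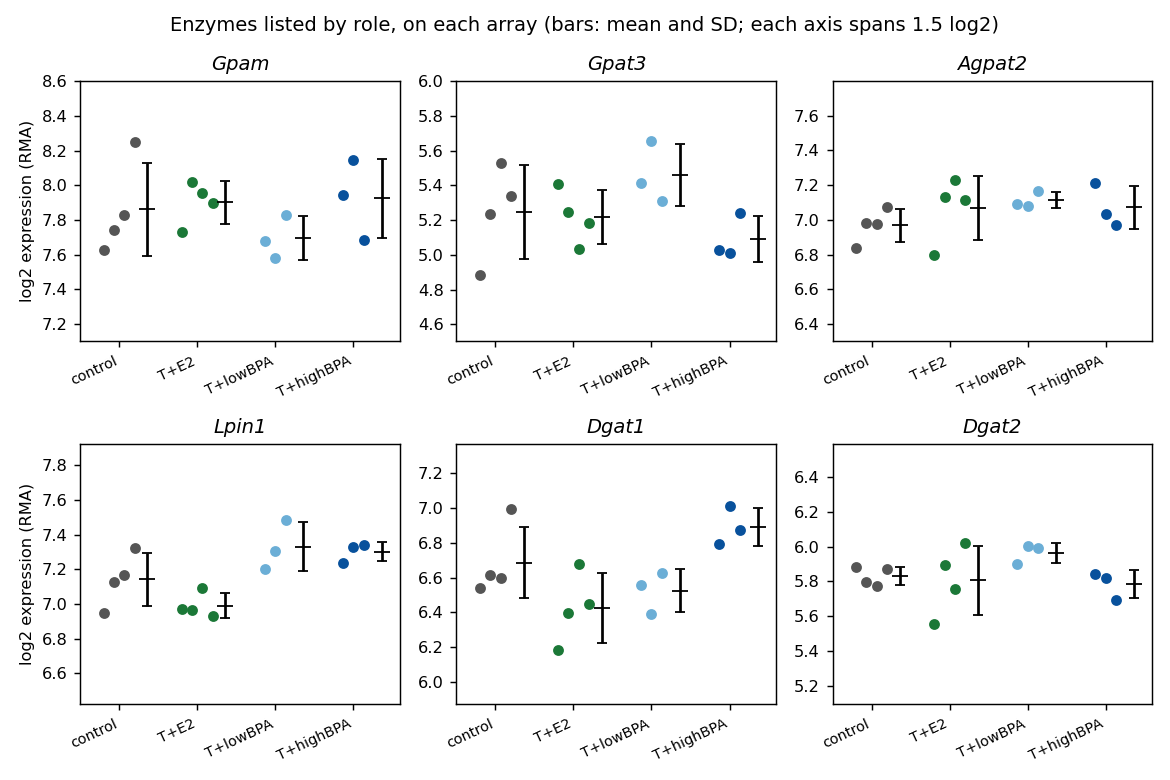
Log2 expression of Gpam, Gpat3, Agpat2, Lpin1, Dgat1 and Dgat2 on each array by group, with mean and SD, every axis spanning the same range. Control, T+lowBPA and T+highBPA means of each gene lie within 0.37 of each other, and Dgat1 is the gene with a call, in T+highBPA against T+E2.

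Ventral lobe markers moved with some of these values. The highest Dgat1 and Gpam arrays were control replicate 4 (6.99 and 8.25) and T+highBPA replicate 2 (7.01 and 8.14), where those markers averaged 12.47 and 12.69. T+E2 replicate 2, at 12.49, had Gpam at 8.02, the highest of its group, and Dgat1 at 6.40. The part of ventral tissue in the Dgat1 and Gpam values was not tested beyond the covariate fit above. Gpat4, in values that also chose it, was 8.88 to 9.11 on the T+lowBPA arrays, where the markers averaged 7.39 to 7.74, and control replicate 4 and T+E2 replicate 2, with the markers above 12, had 8.22 and 7.70. With the marker mean as a covariate, Gk5 in T+highBPA against T+E2 had a difference of 1.30 and Pi4k2b of 0.46, and both were still called. Apart from T+E2 replicate 2, the markers averaged 6.58 to 8.41 in T+E2, against 10.48 to 12.69 in T+highBPA. Group and covariate therefore largely go together, and the part of ventral tissue in the Gk5 and Pi4k2b values was not tested.

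**Figure D3:**
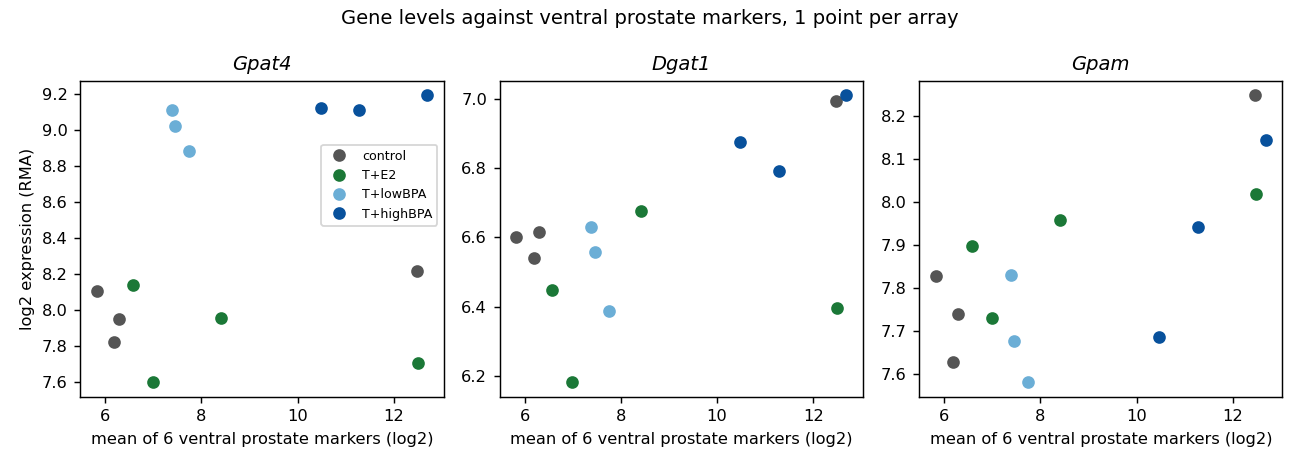
Log2 expression of Gpat4, Dgat1 and Gpam against the mean of 6 ventral prostate markers, 1 point per array, coloured by group. On the BPA arrays, with markers from 7.39 to 12.69, Gpat4 lies above all other arrays, in values that also chose it. Dgat1 and Gpam are highest on control replicate 4 and T+highBPA replicate 2, where the markers are above 12. T+E2 replicate 2, with the markers at 12.49, has Dgat1 at 6.40. The part of ventral tissue in these values was not tested here.

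**Figure D4:**
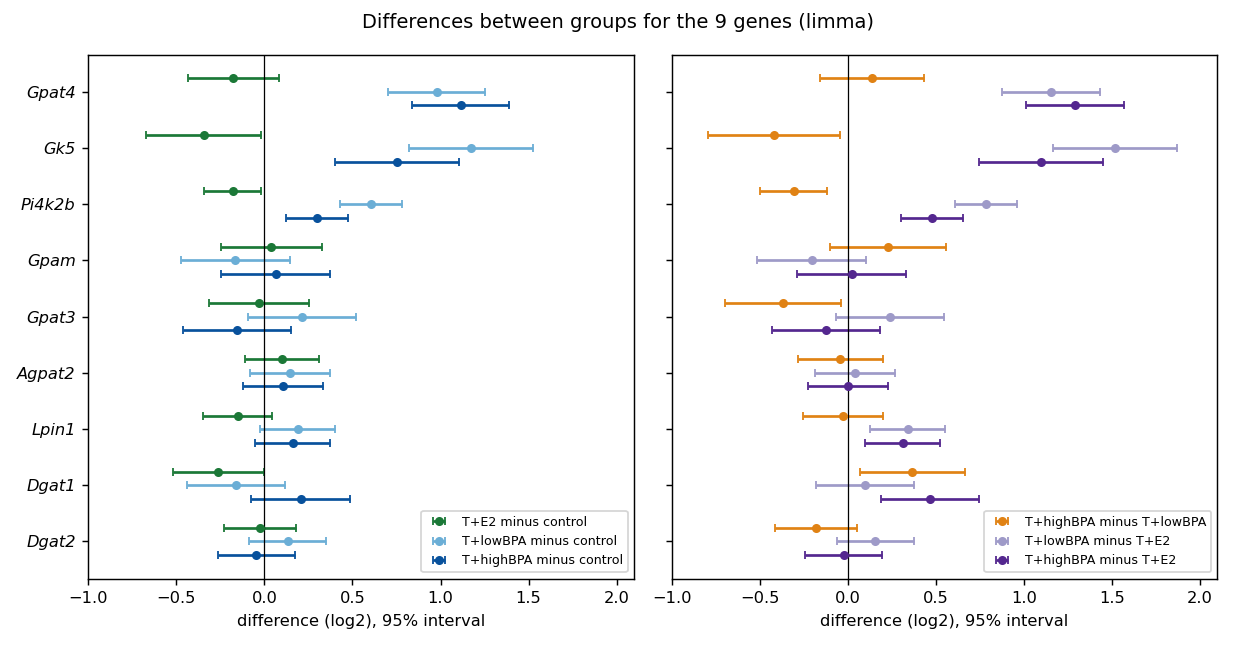
Differences between groups on the log2 scale with 95% intervals for the 9 genes in the 6 comparisons. Gpat4, Gk5 and Pi4k2b stand to the right of 0 in all 4 comparisons of a BPA group with control or T+E2, and the intervals of Gpam, Agpat2 and Dgat2 cross 0 in all 6.

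A wider list of 89 glycerolipid genes, written by role and including the 9, had 80 measured. In T+lowBPA against control limma called 3 genes in all, the chosen ones, so the lack of calls among the other 71 follows from the choice. Of those 71, 7 had an unadjusted p below 0.05, beside 7.59% of all genes. In T+highBPA against control the 1 call in all was Gpat4, so the lack of calls among the 71 is again fixed by the choice. There 5 of the 71 had an unadjusted p below 0.05, beside 8.64% of all genes. The median difference of the 80 genes was 0.03 in T+lowBPA and 0.06 in T+highBPA, beside 0.02 and -0.02 over all genes. In T+lowBPA against control the smallest p among the 71 belonged to the lipid droplet gene Cidec at 0.37 and the hormone-sensitive lipase gene Lipe at 0.33 upward, and to Cidea at -0.34 and Cideb at -0.33 downward. In T+highBPA they belonged to Bscl2, the seipin gene, at 0.33 and Pi4k2a at 0.38 upward, and to the glycerol channel gene Aqp3 at -0.36 and Fitm1 at -0.31 downward. Pi4k2a encodes the other type II phosphatidylinositol 4-kinase.

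**Figure D5:**
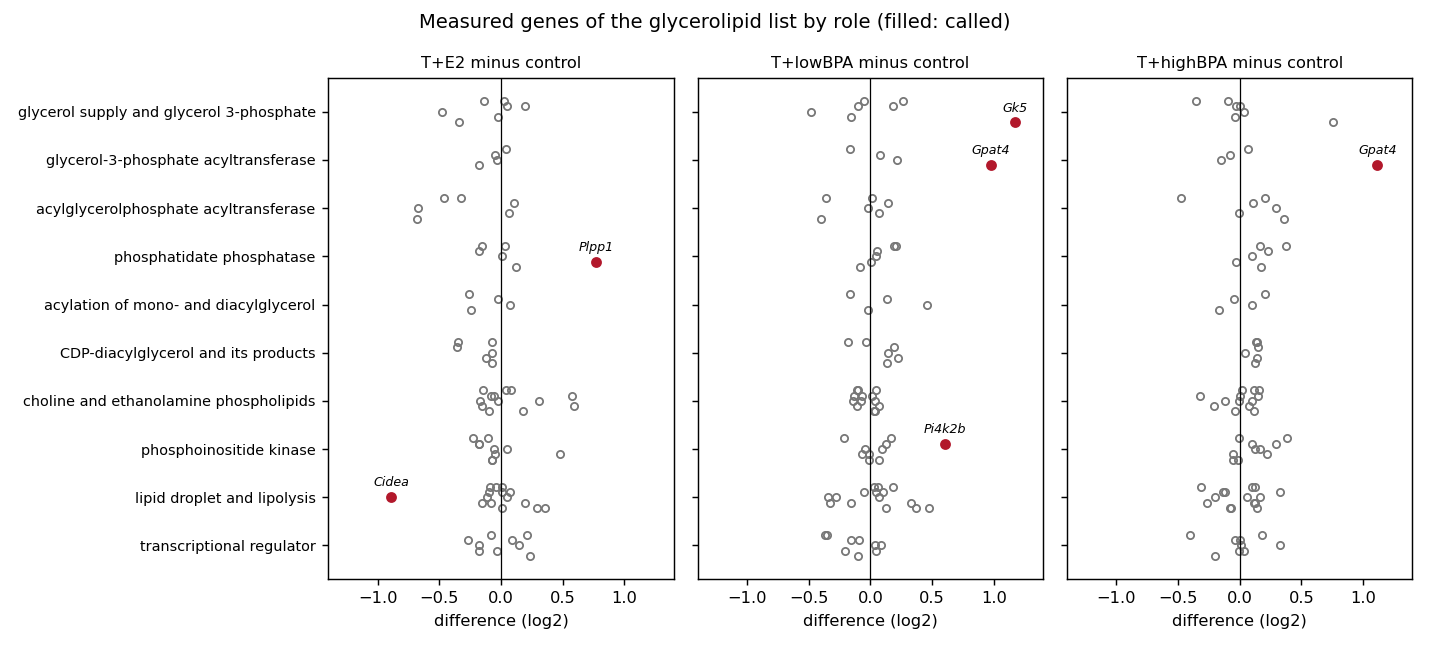
Difference from control on the log2 scale for the 80 measured genes of the glycerolipid list, by role, in T+E2, T+lowBPA and T+highBPA, with called genes filled and named. Gpat4, Gk5 and Pi4k2b are the called genes in T+lowBPA, Gpat4 in T+highBPA, and Plpp1 and Cidea in T+E2.

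In T+E2 the called genes of the list were others. Cidea, whose product promotes fusion of lipid droplets, fell by 0.89 on the log2 scale (0.11 SE, limma adjusted p = 0.000375), from 7.26 to 7.64 in control to 6.35 to 6.73 in T+E2. Plpp1, a lipid phosphate phosphatase of the cell surface, rose 1.71-fold (0.77 ± 0.10, SE, limma adjusted p = 0.000547), from 9.18 to 9.30 to between 9.75 and 10.15. The groups did not overlap for either gene, as for 9.35% of all genes. These 2 of 80 genes are 2.5%, beside 3.23% of all genes called, and the list's median was -0.06 beside 0.01 over all genes. Against control, Plpp1 differed by 0.00 in T+lowBPA and -0.03 in T+highBPA, and Cidea by -0.34 and 0.17, with no call.

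Among the treated groups, comparisons with T+E2 share the T+E2 arrays, so their values stand side by side only. In T+lowBPA against T+E2, 4 of the 71 further genes were called, or 5.63% beside 3.53% of all genes: Cidea at 0.55, the CDP-diacylglycerol synthase gene Cds1 at 0.54, Plpp1 at -0.77 and the choline kinase gene Chka at -0.70. Leaving out 1 of the 14 arrays at a time, the Cds1 and Chka calls there were each lost 11 times (adjusted p up to 0.205 and 0.166). The Cidea call was lost without T+E2 replicate 2 (0.0635), T+lowBPA replicate 1 (0.122) or T+lowBPA replicate 3 (0.0718). In T+highBPA against T+E2, 7 of 71 were called, or 9.86% beside 10.2%. Cidea rose by 1.05 (limma adjusted p = 0.000135), Cds1 by 0.50, Agpat5 by 1.04 and Agpat3 by 0.97, while Plpp1 fell by 0.80 and Chka fell by 0.90. The other called gene, Agpat1 at 0.67 (adjusted p = 0.048), was named after its value was seen. Cds1 was no longer called there with the ventral marker covariate (adjusted p = 0.103), with cyclic loess (0.0787) or quantile normalization (0.0922), on the 2 groups alone (0.0507), or without T+E2 replicate 1 or 2 (0.0813 and 0.0534) or T+highBPA replicate 1 or 2 (0.11 and 0.124). Agpat1, Agpat3 and Agpat5 are 3 of the 6 measured acylglycerolphosphate acyltransferases, beside the 10.2% of all genes called, and Agpat2, another, differed by 0.00. This grouping was made after the calls were seen, and nothing is read from it. The Agpat1 call, near the threshold, was not followed singly over the other settings.

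Agpat5 and Agpat3 were both lower in T+E2 than in control, at -0.68 and -0.67 (limma adjusted p = 0.0808 and 0.115), and higher in T+highBPA than in control, at 0.35 and 0.29 (0.664 and 0.752), without a call. Their highest arrays were again control replicate 4 (7.23 for Agpat5 and 9.39 for Agpat3) and T+highBPA replicate 2 (7.51 and 9.29), both with ventral markers above 12. T+E2 replicate 2, the other such array, had 6.30 and 8.20, the highest of its group. With the ventral marker covariate the T+highBPA minus T+E2 difference was 0.73 for Agpat5 (adjusted p = 0.0109) and 0.61 for Agpat3 (adjusted p = 0.0266). The Agpat3 call was lost without T+E2 replicate 1 (adjusted p = 0.052), T+highBPA replicate 1 (0.06) or T+highBPA replicate 2 (0.0839). Between the amounts of bisphenol A no gene of the 80 was called by limma and 13 had an unadjusted p below 0.05, beside 14% of all genes. The smallest p among the 71 further genes belonged to Cidea at 0.51 and Agpat5 at 0.75 upward, and to Aqp3 at -0.31 and Cidec at -0.45 downward.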

How the data were processed

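RNA had been isolated with TRIzol, amplified with a whole-transcriptome kit and hybridised to Affymetrix arrays, per the labels' protocols. The deposited log2 values were made by the authors with RMA, per the submitters' processing notes (genome build, probe set definition and RMA version: not given in the sources used here). They ran from 2.30 to 13.65, with array medians of 6.38 to 6.46. Of 17802 probe sets, 16134 had 1 gene symbol and were used. The other 1668, without a single symbol, were left out of every fit. Each named set is counted as 1 gene, although 5 symbols stood on 2 sets. Symbols were updated for 3138 sets, and 16008 named sets matched a gene number of RefSeq's GRCr8 table. No value of the named sets was filtered out in the main fit.

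Group differences came from limma 3.58.1 under R 4.3.3, with 1 coefficient per group over all 14 arrays (10 residual degrees of freedom, prior 4.13), two-sided, Benjamini-Hochberg adjusted within each of 6 comparisons, and the fit was checked on simulated data. Arrays have no depth, and their number limits the precision. The members, gene lists and markers were chosen with earlier results of these data known. Of the wider list, called genes are named, at most 4 in each direction by p, or where none was called the 2 smallest p in each direction. Patterns like a gene's are the 5 highest Pearson r, without serial symbols. Shared replicate numbers were not taken to pair the arrays, since same-numbered arrays did not deviate together throughout: all 3 correlations of their deviations exceeded 0.1 between T+E2 and T+highBPA (0.14 to 0.43) and between the BPA groups (0.10 to 0.25), but not in the other comparisons. Alternatives were other scalings, filters and priors, array weights, a replicate block, marker covariates, fits of 2 groups and leaving out each array.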

Additional observations from a re-analysis of the deposited data

Results flagged for a closer look

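Dgat1 on control replicate 4 was 6.99, against 6.54 to 6.61 on the other 3 controls, a gap wide enough to set that array apart in its group by Dixon's test. It was the only such value among the 18 groups of 4 arrays tested (9 genes in control and T+E2), and chance alone sets apart about 1 in 20. The ventral prostate markers averaged 12.47 on that array and 5.82 to 6.29 on the other controls. Without it, Dgat1 in T+highBPA against control differed by 0.31 in place of 0.21, and was still not called.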

How the results depend on the processing

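In T+highBPA against T+E2, Gk5 and Pi4k2b stayed called under all 24 alternative settings and 1 more chosen after seeing the data, with adjusted p up to 0.00869 and 0.0224. These settings do not make that comparison an independent test of the genes, given how they were chosen. Counts of called glycerolipid genes moved as follows. Array weights gave 5 in T+E2 against control, 3 in T+highBPA against control, 11 in T+lowBPA against T+E2 and 18 in T+highBPA against T+E2, in place of 2, 1, 7 and 11. The ventral marker covariate gave 6 in T+E2 against control and 2 in T+highBPA against control. Fits of the 2 groups alone gave 0 in both BPA groups against control, with fewer samples. The replicate block gave 1 in place of 3 in T+lowBPA against control, although same-numbered arrays did not deviate together throughout (correlations of -0.46 to 0.44, median 0.17, over 19 pairs, beside a median of -0.02 over 54 other pairs). In the comparisons where all 3 such correlations exceeded 0.1, T+highBPA against T+E2 and between the BPA groups, the block changed no call of the 9 genes except Lpin1. It turned Dgat2 in T+highBPA against T+E2 to 0.0188 and took Lpin1 there past the threshold (adjusted p = 0.0447). Leaving out 1 array gave 2 to 4, 0 to 3, 0 to 1, 0 to 0, 4 to 11 and 7 to 17 glycerolipid genes in the 6 comparisons (T+E2, T+lowBPA and T+highBPA against control, T+highBPA against T+lowBPA, T+lowBPA and T+highBPA against T+E2). In T+lowBPA against control, dropping control replicate 1, control replicate 2 or 1 of the 3 T+lowBPA arrays each left 0. In T+highBPA against control, dropping control replicate 2 or 1 of the 3 T+highBPA arrays each left 0. Against T+E2, leaving out control replicate 4 gave 11 and 17, leaving out T+E2 replicate 2, T+lowBPA replicate 1 or T+lowBPA replicate 3 gave 4 in T+lowBPA, and leaving out T+E2 replicate 1, T+highBPA replicate 1 or T+highBPA replicate 2 gave 7 in T+highBPA. In T+E2 against control, leaving out control replicate 1 or 4 gave 4. The cause was not tested.

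Over all genes, the same leave-outs gave 282 to 662, 0 to 14, 0 to 12, 0 to 1, 309 to 882 and 857 to 2493 calls. Array weights gave 1098, 31, 235, 2, 904 and 2759, and the ventral covariate 1164, 26 and 50 against control and 858 in T+lowBPA against T+E2. Fits of 2 groups gave 222, 0 and 0 against control and 18 between the BPA groups. In T+lowBPA against control, quantile normalization gave 6 and an intensity trend 8. The skeletal muscle covariate gave 61 between the BPA groups. Leaving out control replicate 4 and T+E2 replicate 2 together, chosen after seeing the data, gave 18 and 60 in T+lowBPA and T+highBPA against control and 6 between the BPA groups.

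Small uncalled differences changed sign. In T+E2 against control these were Gpam (-0.0207 with the ventral covariate, -0.0374 to 0.17 leaving out 1 array), Gpat3 (-0.15 to 0.0647) and Dgat2 (0.0478 with array weights, -0.0955 to 0.0595). In T+highBPA against control they were Gpam (-0.19 with the ventral covariate, -0.0464 to 0.19) and Dgat2 (0.00864 with cyclic loess, 0.00777 with quantile normalization). Between the BPA groups they were Gpam (-0.0312 with the ventral covariate), Agpat2 (-0.11 to 0.00969) and Lpin1 (0.0182 with the muscle covariate, -0.0929 to 0.0479), and in T+lowBPA against T+E2 Agpat2 (-0.0457 to 0.0977). In T+highBPA against T+E2, cyclic loess, quantile normalization and the ventral covariate gave Gpam -0.0836, -0.0828 and -0.16 and Agpat2 -0.0538, -0.0515 and -0.0605, with -0.0863 to 0.14 and -0.0865 to 0.0569 leaving out 1 array. There cyclic loess and quantile normalization gave Gpat3 0.0160 and 0.0332 and Dgat2 0.0706 and 0.0792, and Dgat2 was 0.00564 without the 2 high-ventral arrays and -0.11 to 0.0477 leaving out 1. Lpin1 against T+E2 was called in T+highBPA with array weights, the muscle covariate or without control replicate 1 or 4 (adjusted p 0.0268 to 0.0458), and in T+lowBPA with array weights, the ventral covariate or without control replicate 4 (0.0431 to 0.0459).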

Other observations

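The genes that flank Gpat4, Gk5 and Pi4k2b in the GRCr8 gene order were looked at as values. The 3 nearest measured genes on each side, 18 in all, differed from control by -0.63 to 0.47 in T+lowBPA and by -0.49 to 0.59 in T+highBPA. Over all genes, limma's only calls in these comparisons were among Gpat4, Gk5 and Pi4k2b, so the lack of calls among the 18 follows from that choice. Their smallest limma adjusted p was 0.534 in T+lowBPA and 0.466 in T+highBPA. The highest value in both comparisons was that of Gins4, next to Gpat4, at 0.47 and 0.59, while Nkx6-3 on the other side of Gpat4 was at 0.27 and 0.06.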
